A study of Saccharomyces cerevisiae with 8 samples.

Results

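The genes described here encode the Mub1-Ubr2 and Ubr1 ubiquitin ligases of budding yeast, the conjugating enzyme that both use, and known substrates or outputs of either ligase. They were taken by name as MUB1, UBR2, RAD6, RPN4, UBR1, CUP9, PTR2 and DSN1, which are 8 of the 6534 gene identifiers counted. All 8 were among the 5954 genes that passed a filter on low counts, MUB1 through the libraries that still carry it. Polyadenylated RNA of exponentially growing Saccharomyces cerevisiae was sequenced after 5 hours in a defined medium, in 4 groups of 2 libraries: mub1 deletion with 20 µg/ml Calcofluor white (CFW), mub1 deletion with 0 µg/ml, wild type (WT) with 20 µg/ml and WT with 0 µg/ml. CFW is a dye that binds chitin and disturbs the cell wall. The labels give the WT strain as BMA41 and the mub1 strain as derived from it, and they do not say how MUB1 was removed. Nor do they say that the replicates grew apart, so the p-values reflect library-to-library spread that may be technical.

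A ubiquitin ligase chooses the proteins that are tagged with ubiquitin and passed to the 26S proteasome. Ubr2, with its adaptor Mub1 and the conjugating enzyme Rad6, tags Rpn4, the short-lived activator of the proteasome genes, and so sits in a feedback loop in which the proteasome degrades its own activator. The same adaptor and ligase also tag the kinetochore protein Dsn1. Ubr1, a relative of Ubr2 that also works with Rad6, reads destabilising N-terminal residues, the N-degrons. Imported dipeptides bind Ubr1 and speed its destruction of Cup9, the repressor of PTR2, which encodes the dipeptide transporter. These links act largely on protein stability, whereas the values below are mRNA levels.

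The libraries held 24147195 to 31677985 counts, and levels are given as CPM, counts scaled to a common library size, with TMM factors of 0.9793 to 1.024. Genes that serve as selection markers also parted the genotypes: LEU2, URA3 and MET17 had 2621 to 7122 counts in the 4 mub1 libraries and at most 2 in WT, while TRP1 had 0 counts in the 4 mub1 libraries and 909 to 989 in WT. ADE2 (-1.79 ± 0.05) and HIS3 (-1.17 ± 0.06, log2 fold change ± SE over both media) were lower in mub1. The loss of MUB1 and these marker differences fall on the same libraries. The genotypes therefore differ by more than the loss of MUB1, although the labels derive the mub1 strain from the WT strain. What else differs in the genome the labels do not settle. The loss of MUB1, the marker genes and any other difference in strain background cannot be told apart, and every difference called mub1 against WT below holds all of them. The WT libraries with CFW differed from each other most, by 75.9 times the variance that counting alone gives, against 11.4 to 29.6 times in the other groups. A level is a share of a library's mRNA, so fewer cells using a gene and less mRNA per cell cannot be told apart.

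MUB1 (YMR100W), the adaptor gene, is a single coding exon of 1863 bases on the plus strand of chromosome XIII, 466300 to 468162 in build R64. Its transcript was all but absent under the deletion label: 0 and 1 counts in the mub1 libraries with CFW and 1 and 0 in those without it, against 1042 and 1226 in WT with CFW and 1068 and 1066 in WT without it. The level in WT was 2621 times that in mub1 with CFW (95% Clopper-Pearson counting interval 470.0 to 103580) and 2124 times without it (381 to 83913). All 4 mub1 libraries match their label at this gene. In WT, CFW left MUB1 at 40.97 and 48.6 CPM, against 41.6 and 43.3 CPM without the dye (log2 fold change 0.08 ± 0.13, adjusted p = 0.712 by edgeR's quasi-likelihood test), a difference smaller than the spread between the CFW libraries. The annotated genes on either side, YMR099C (-0.12 ± 0.05, adjusted p = 0.0585) and SRT1 (0.31 ± 0.19, adjusted p = 0.205), did not pass that test between genotypes over both media. YMR099C was near the threshold and SRT1 stood at only 3.29 to 5.97 CPM, so these results do not show that either was unchanged.

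**Figure D1:**
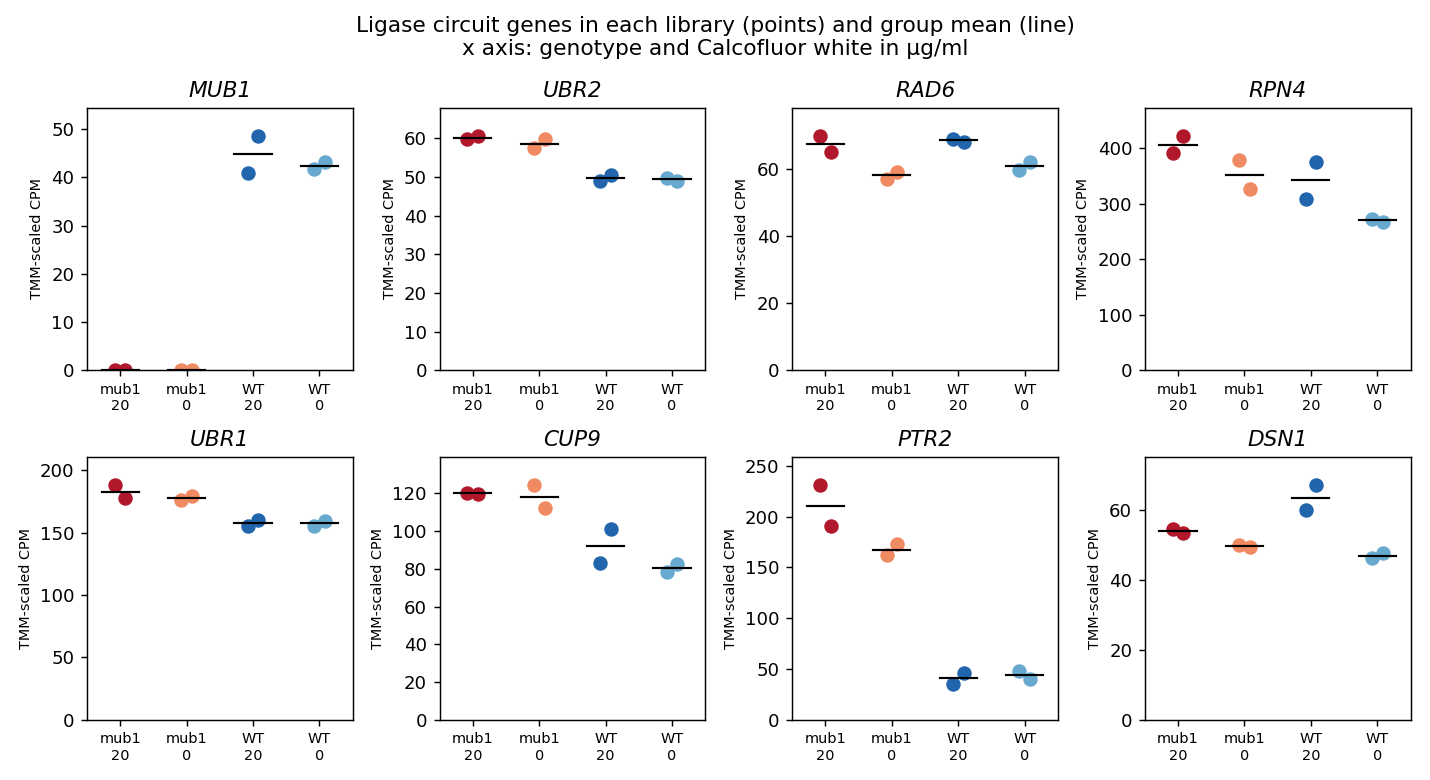
Level of each circuit gene in TMM-scaled CPM (y axis, from 0) in the 4 groups of genotype and CFW concentration in µg/ml (x axis); points are libraries and lines are group means. PTR2 lies between 162 and 231 CPM in the 4 mub1 libraries and between 35.5 and 47.6 CPM in the 4 WT libraries, while RAD6 lies in the same range in both genotypes.

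The genotype difference was tested over both media with edgeR's quasi-likelihood test, as the mean of the difference with and without CFW, with p-values adjusted by Benjamini-Hochberg over all 5954 genes. Changes here and below are log2 fold changes ± SE, from 2 libraries per group. Besides MUB1, 5 of the other 7 genes rose in mub1 (UBR2, RPN4, UBR1, CUP9 and PTR2) and RAD6 and DSN1 did not pass. Of all tested genes, 26.7% were called higher and 26.2% lower in that comparison. Calls were frequent genome-wide, and the genes were chosen with earlier results of these data known. No conclusion about the circuit is therefore drawn from the count. The 6 calls held under all 15 alternatives of scaling, filter, test, replicate block and left-out library, with adjusted p of at most 0.037 for UBR1, 0.0364 for RPN4 and 0.0111 for UBR2. In 5 of the 8 genes, MUB1 included, all mub1 libraries lay beyond all WT libraries, as in 32.3% of tested genes. By medium, 4 genes rose and 2, MUB1 and DSN1, fell with CFW, beside 18.6% and 17.3% of all genes, and 4 rose and MUB1 alone fell without it, beside 22.1% and 20.8%. The mub1 pair lay apart from the WT pair in 7 of 8 genes with CFW and in 8 of 8 without it, as did 66.2% and 77.5% of all genes.

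**Figure D2:**
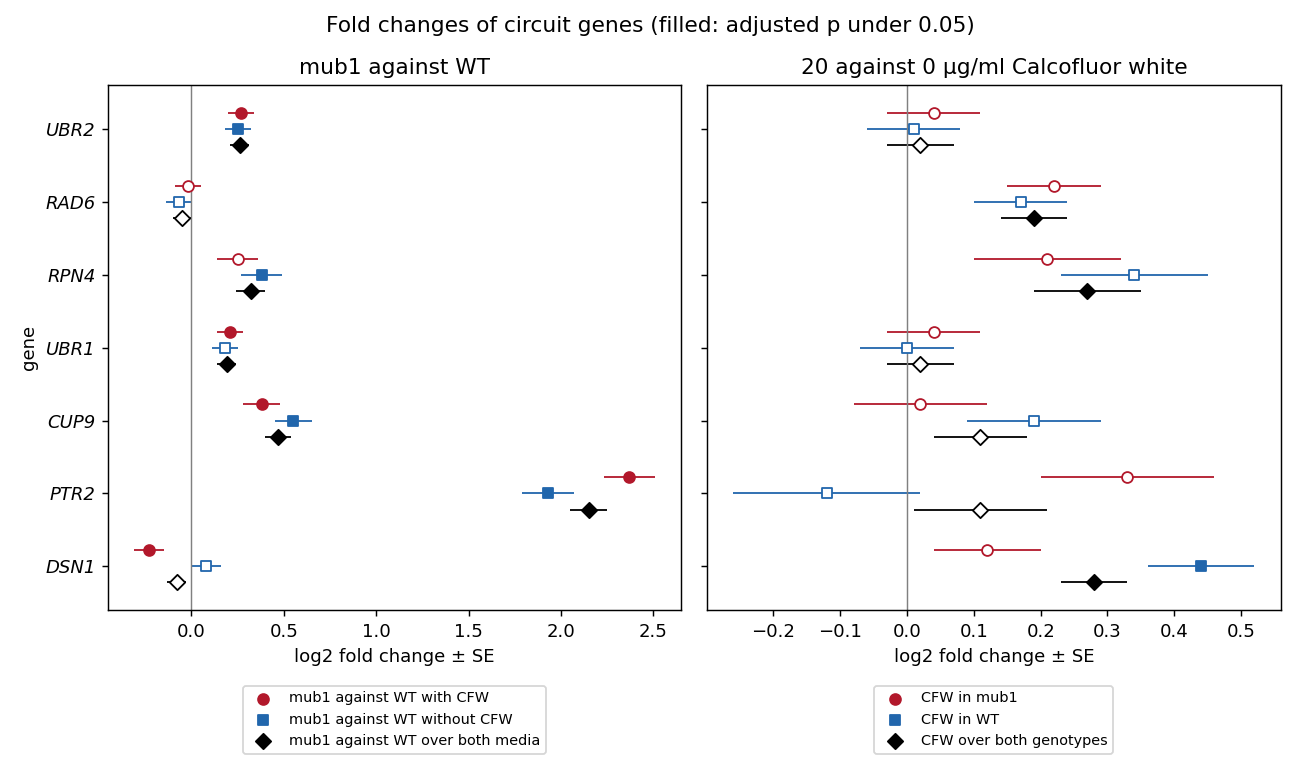
Log2 fold change ± SE (x axis) of the circuit genes other than MUB1 (y axis) between genotypes (left) and between CFW concentrations (right), with 2 libraries per group; filled symbols have an adjusted p under 0.05. PTR2 stands far to the right in the genotype panel, at 2.15 ± 0.10 over both media, and no gene is filled for CFW in mub1.

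UBR2 (YLR024C, chromosome XII, 187663 to 193281, minus strand) encodes the ligase that Mub1 serves. UBR2 stood at 59.7 and 60.7 CPM in the mub1 libraries with CFW and at 57.4 and 59.9 CPM in those without it, against 48.9 and 50.6 CPM in WT with CFW and 49.9 and 49.1 CPM in WT without it. All 4 mub1 libraries lay above all 4 WT libraries, and the difference with CFW did not pass in mub1 (0.04 ± 0.07, adjusted p = 0.713) or in WT (0.01 ± 0.07, adjusted p = 0.947). The gene rose by 0.26 ± 0.05, adjusted p = 0.00171 over both media. Within a medium the change was 0.27 ± 0.07, adjusted p = 0.0126 with CFW and 0.25 ± 0.07, adjusted p = 0.0182 without it. These calls rest on few libraries: with CFW it was lost without either mub1 library with CFW (adjusted p up to 0.0846) and with only the 4 libraries concerned fitted (0.0516), and without CFW it was lost without any 1 of the 4 libraries concerned (up to 0.108). The interaction of genotype and CFW was 0.03 ± 0.10, adjusted p = 0.876.

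RAD6 (YGL058W, chromosome VII, 393986 to 394504, plus strand) encodes the ubiquitin-conjugating enzyme of Ubr1 and Ubr2, and also of Rad18 and Bre1 in DNA damage tolerance and histone H2B tagging. RAD6 stood at 70.05 and 65.1 CPM in the mub1 libraries with CFW and at 57.00 and 59.3 CPM in those without it, against 69.2 and 68.3 CPM in WT with CFW and 59.9 and 62.2 CPM in WT without it. In each genotype both CFW libraries lay above both libraries without the dye, and the CFW pair lay apart from the other pair, on either side, in 71.6% of all genes in mub1 and 58.8% in WT. The genotypes overlapped over both media. Over both genotypes RAD6 rose with CFW by 0.19 ± 0.05, adjusted p = 0.0174, but the call was lost without mub1 with CFW replicate 1, mub1 without CFW replicate 1 or WT without CFW replicate 1 (adjusted p up to 0.079). Between genotypes the difference was -0.05 ± 0.05, adjusted p = 0.459. Of 4 other genes from these pathways of Rad6, 2 rose, 0 fell and 2 did not pass between genotypes over both media, beside 26.7% of all genes called higher and 26.2% lower. RAD18, a ligase of DNA damage tolerance (0.28 ± 0.06, adjusted p = 0.00519), and RAD5, which acts after it (0.25 ± 0.06, adjusted p = 0.00522), were the pair that rose, whereas BRE1, the histone ligase (-0.08 ± 0.06), and its partner LGE1 (-0.14 ± 0.07) were not called. By medium LGE1 fell with CFW (-0.42 ± 0.10, adjusted p = 0.00838), a call lost without mub1 with CFW replicate 1 (0.0624), and was at 0.14 ± 0.10, adjusted p = 0.268 without it, while its interaction did not pass (-0.57 ± 0.14, adjusted p = 0.062).

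RPN4 (YDL020C, chromosome IV, 415113 to 416708, minus strand) encodes the activator of the proteasome genes that Mub1-Ubr2 marks for destruction. Its upstream DNA is shown because regulators known to act on RPN4, the drug-response factors Pdr1 and Pdr3, the oxidative stress factor Yap1 and the heat shock factor Hsf1, have binding letters there. The stretch of 220 bases begins 500 bases before the start codon (chrIV:416989-417208, minus strand, build R64, from the RefSeq genome), and capitals mark the matches to those letters.
RPN4 upstream: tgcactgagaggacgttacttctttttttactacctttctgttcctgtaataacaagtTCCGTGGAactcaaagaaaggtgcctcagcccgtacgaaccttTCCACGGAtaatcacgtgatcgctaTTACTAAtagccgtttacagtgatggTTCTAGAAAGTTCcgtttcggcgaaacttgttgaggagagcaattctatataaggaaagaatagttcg
The first 2 capital runs are forms of the Pdr1 and Pdr3 element (TCCGCGGA or TCCGTGGA searched, 1.67% of 6000 upstream windows of 500 bases hold one). The third is the Yap1 element (TTACTAA or TTAGTAA, 11.8% of windows), and the fourth is a heat shock element of 3 alternating units (1.48% of windows). Both strands were searched, the PDR, YRE and HSE letters do not overlap each other here, and RPN4 holds a further heat shock element closer to its start. Among the other 7 circuit genes only UBR2 held any of the letters searched, a Yap1 element from 146 to 140 bases before its start codon. The core letters TGACACA of the Cup9 site stood in 5.87% of windows and in none of these 8. The gap from PTR2 to the next protein-coding gene upstream is 1844 bases, and letters beyond the 500 bases were not searched. A match is a stretch of letters, not a measured site.

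RPN4 stood at 391 and 423 CPM in the mub1 libraries with CFW and at 378 and 327 CPM in those without it, against 308 and 376 CPM in WT with CFW and 272 and 267 CPM in WT without it. The lowest RPN4 levels were those of WT without CFW, and with CFW the lower mub1 library exceeded the higher WT library by less than the gap between the WT replicates. RPN4 rose in mub1 by 0.32 ± 0.08, adjusted p = 0.00734 over both media. By medium the difference was 0.25 ± 0.11, adjusted p = 0.107 with CFW and 0.38 ± 0.11, adjusted p = 0.0197 without it, and the interaction was -0.13 ± 0.16, adjusted p = 0.626. The call without CFW was lost without either WT library lacking CFW or without mub1 without CFW replicate 1 (adjusted p up to 0.155), and RPN4 passed with CFW when WT with CFW replicate 2 was left out (0.00396). CFW raised RPN4 over both genotypes by 0.27 ± 0.08, adjusted p = 0.0229, a call lost without either WT library lacking CFW, mub1 without CFW replicate 2 or mub1 with CFW replicate 2 (up to 0.0948). In each genotype by itself CFW did not pass, at 0.21 ± 0.11, adjusted p = 0.187 in mub1 and 0.34 ± 0.11, adjusted p = 0.0584 in WT. In WT it did pass with DESeq2 (adjusted p = 0.0233), scaled by library totals (0.0489) and without WT with CFW replicate 1 (0.00114), and in mub1 without either WT library with CFW (0.0391 and 0.0412).

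Of the 4 genes for factors known to act on RPN4, 2 rose, 0 fell and 2 did not pass between genotypes over both media, beside 26.7% of all genes called higher and 26.2% lower. YAP1 stood at 292 and 277 CPM in mub1 with CFW and 248 and 247 CPM without it, against 184 and 204 CPM in WT with CFW and 194 and 179 CPM without it. All mub1 libraries were above all WT libraries, a rise of 0.48 ± 0.06, adjusted p = 9.72e-05. PDR1 rose by 0.17 ± 0.07, adjusted p = 0.0492, a call lost under 9 of 15 alternatives, among them DESeq2, library totals, upper-quartile scaling, no filter and single left-out libraries of each group except WT with CFW (adjusted p up to 0.186). PDR3 (-0.15 ± 0.07) and HSF1 (0.13 ± 0.07) did not pass. By medium PDR3 was at 0.09 ± 0.10, adjusted p = 0.536 with CFW and fell without it (-0.39 ± 0.11, adjusted p = 0.0147), a call lost without either WT library lacking CFW or mub1 without CFW replicate 1 (up to 0.121), and its interaction did not pass (0.48 ± 0.15, adjusted p = 0.103). None of the 4 changed with CFW over both genotypes at an adjusted p under 0.05 by edgeR's test. Of all genes 17.8% were called higher and 17.7% lower there. At an unadjusted p under 0.05, 2 of the 4 changed, and 0 did with DESeq2.

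Rpn4 acts through the letters GGTGGCAAA, the proteasome-associated control element, which 27 of the 33 genes of 26S proteasome subunits hold within 500 bases before the start codon (81.8%), against 99 of 6000 genes in all (1.65%). In mub1 over both media, of the 33 subunit genes 25 rose, 0 fell and 8 did not pass, with a median log2 fold change of 0.24 against -0.01 over all tested genes, of which 26.7% were called higher. PRE4 (0.42 ± 0.05), PUP1 (0.29 ± 0.04), both of the catalytic core, and RPT6 (0.41 ± 0.06) and RPN8 (0.31 ± 0.05), of the regulatory particle, had the smallest p among them. By medium, of the 33 genes 26 rose, 0 fell and 7 did not pass with CFW and 10 rose, 0 fell and 23 did not pass without it, beside 18.6% and 22.1% of all genes called higher. With single libraries left out the count of rises ran from 14 to 28 with CFW, lowest without either mub1 library with CFW, and from 1 to 16 without it, at 3 or fewer without any 1 of the 4 libraries concerned. With only the 4 libraries concerned fitted it was 15 with CFW and 16 without it. Of the subunit genes that hold the letters 22 of 27 rose over both media, and of those that do not 3 of 6 did. With CFW in mub1, 0 of 33 changed by edgeR's test (4 at an unadjusted p under 0.05, 1 with DESeq2), beside 27.7% of all genes. In WT 7 of 33 fell with CFW (10 with DESeq2, median -0.13), beside 8.7% of all genes called lower, but 0 did without either WT library lacking CFW or with only the WT libraries fitted, 4 did when scaled by library totals, and 2 or 3 did without any 1 of the 4 mub1 libraries. The interaction called 0 of 33 (6 at an unadjusted p under 0.05, 0 with DESeq2), beside 2.5% of all genes. Its median over the 33 genes was 0.16, with a range of -0.08 to 0.28, so the missing calls do not show equal responses to CFW.

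**Figure D3:**
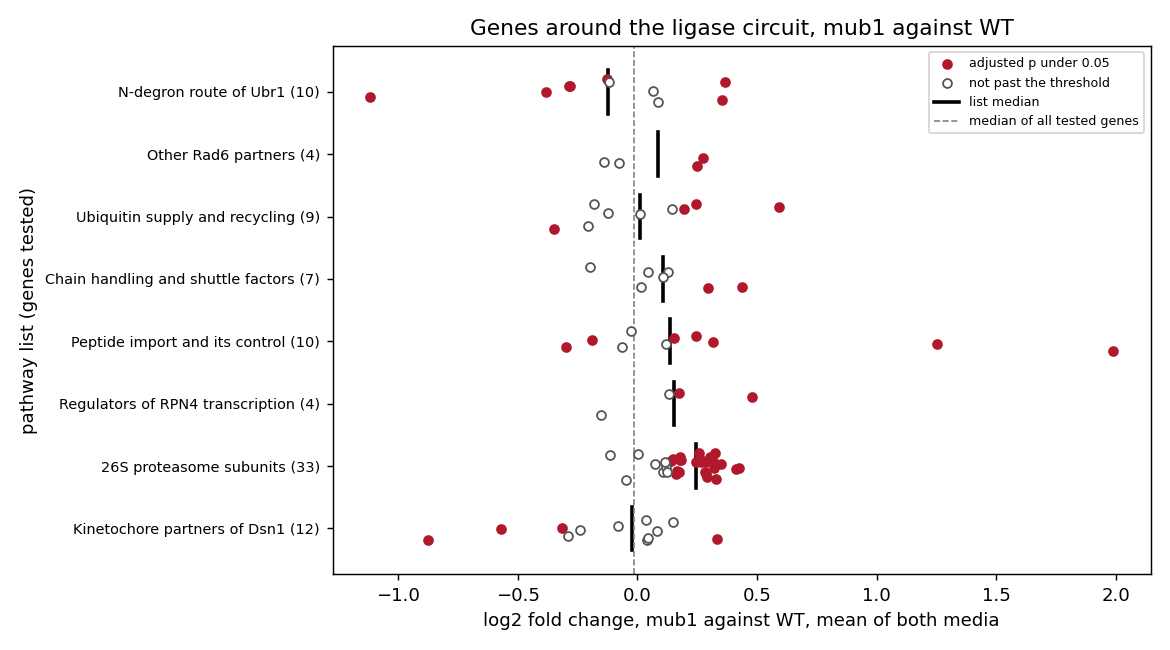
Log2 fold change between mub1 and WT, as the mean of both media (x axis), of the tested genes of 8 lists around the ligase circuit (y axis, number tested in brackets); red points have an adjusted p under 0.05, thick bars are list medians and the dashed line is the median of all tested genes. The proteasome subunits have a median of 0.24, and the largest rise is OPT2 among the peptide import genes at 1.99 ± 0.08.

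UBR1 (YGR184C, chromosome VII, 859901 to 865753, minus strand) encodes the N-degron ligase. UBR1 stood at 188 and 177 CPM in the mub1 libraries with CFW and at 176 and 179 CPM in those without it, against 155 and 160.2 CPM in WT with CFW and 155 and 159 CPM in WT without it. The 4 mub1 libraries lay above the 4 WT libraries by a small margin, and the difference with CFW did not pass in mub1 (0.04 ± 0.07, adjusted p = 0.683) or in WT (0.00 ± 0.07, adjusted p = 0.976). The rise in mub1 was 0.19 ± 0.05, adjusted p = 0.00611 over both media, or 1.14-fold. With CFW it was 0.21 ± 0.07, adjusted p = 0.0306, a call lost under 8 of 16 alternatives, among them the replicate block (adjusted p = 0.0516) and leaving out single libraries (up to 0.211). Without CFW it was 0.18 ± 0.07, adjusted p = 0.0529, which passed with DESeq2, by RLE scaling or library totals, with the stricter filter, with only these 4 libraries and without either WT library with CFW (down to 0.0189). The ratio of UBR2 to UBR1 per coding length was 0.331 and 0.356 in mub1 with CFW, 0.339 and 0.348 in mub1 without it, 0.328 and 0.329 in WT with CFW and 0.334 and 0.321 in WT without it. The level of UBR2 was below that of UBR1 in every library, and the ratios of the genotypes overlapped.

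Around UBR1, 10 genes of the N-degron route gave mixed calls between genotypes over both media: 2 rose, 5 fell and 3 did not pass, beside 26.7% of all genes called higher and 26.2% lower. MAP1, the main methionine aminopeptidase, which exposes the second residue of new proteins, stood at 162 and 165 CPM in mub1 with CFW and 113 and 127 CPM without it, against 340.2 and 303 CPM in WT with CFW and 269.8 and 305 CPM without it. Every mub1 library was below every WT library, and the fall was -1.12 ± 0.07, adjusted p = 1.7e-06. MAP2, its second form (-0.38 ± 0.06), and ESP1, the separase whose cut turns cohesin into an N-degron substrate (-0.28 ± 0.07), fell too. UFD4, a ligase that works beside Ubr1, rose (0.37 ± 0.05). The stress-induced Ubr1 regulator ROQ1 (0.07 ± 0.05) did not pass.

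Genes that supply or recycle ubiquitin (9 tested) also split: 3 rose, 1 fell and 5 did not pass, and the share that rose is near the 26.7% of all genes. UBI4, the stress-induced polyubiquitin gene, rose by 0.59 ± 0.08, adjusted p = 0.000193, DOA1, which helps keep free ubiquitin up, by 0.25 ± 0.05 and the deubiquitinase gene DOA4 by 0.19 ± 0.06, while UBP14, which takes apart free chains, fell (-0.35 ± 0.05). DOA4 lost its call when any 1 library was left out, except for WT with CFW replicate 2 and mub1 with CFW replicate 1 (adjusted p up to 0.105). Counts of the ubiquitin fusion genes RPL40A and RPL40B are uncertain, since the copies are nearly identical, and UBI4 and RPS31 share the ubiquitin sequence with them. Of 7 genes for chain handling and for shuttles to the proteasome, 2 rose, 0 fell and 5 did not pass, a share of rises near the 26.7% of all genes. UFD1, of the Cdc48 complex (0.30 ± 0.05, adjusted p = 0.00127), and the shuttle gene DDI1 (0.44 ± 0.05, adjusted p = 0.000138) rose, whereas CDC48 itself stood at 0.02 ± 0.07. The count of rises in that list went up to 4 with 1 library left out.

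CUP9 (YPL177C, chromosome XVI, 213042 to 213962, minus strand) encodes the homeodomain repressor that Ubr1 destroys. CUP9 stood at 120.3 and 119.8 CPM in the mub1 libraries with CFW and at 124 and 112 CPM in those without it, against 82.99 and 101 CPM in WT with CFW and 78.2 and 82.7 CPM in WT without it. All mub1 libraries lay above all WT libraries, and the pair of WT libraries with CFW differed widely. The rise in mub1 was 0.47 ± 0.07, adjusted p = 0.000453 over both media (1.38-fold). It was 0.38 ± 0.10, adjusted p = 0.0141 with CFW, a call lost without either mub1 library with CFW and when the fit held just those 4 libraries (adjusted p up to 0.0739), and 0.55 ± 0.10, adjusted p = 0.00203 without it, which held under all 16 alternatives. CFW did not change CUP9 past the threshold in mub1 (0.02 ± 0.10, adjusted p = 0.888) or in WT (0.19 ± 0.10, adjusted p = 0.202). Without WT with CFW replicate 1 the WT change passed (0.00822) and so did the interaction (-0.32, adjusted p = 0.0416), which with all libraries was -0.17 ± 0.14, adjusted p = 0.473.

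PTR2 (YKR093W, chromosome XI, 615730 to 617535, plus strand) encodes the transporter for dipeptides and tripeptides that Cup9 represses. PTR2 stood at 231 and 190.4 CPM in the mub1 libraries with CFW and at 162 and 173 CPM in those without it, against 35.5 and 45.8 CPM in WT with CFW and 47.6 and 40.6 CPM in WT without it. The genotypes stood far apart in both media, with the lowest mub1 library at 162 CPM and the highest WT library at 47.6 CPM. PTR2 rose in mub1 by 2.15 ± 0.10, adjusted p = 4.6e-07 over both media, or 4.44-fold, and ranked 33 among the 5954 genes by that fold change. With CFW the rise was 2.37 ± 0.14, adjusted p = 5.31e-06 and without it 1.93 ± 0.14, adjusted p = 1.8e-05, and both held under all 16 alternatives. CFW gave 0.33 ± 0.13, adjusted p = 0.0909 in mub1, where both CFW libraries were above both others, and -0.12 ± 0.14, adjusted p = 0.596 in WT. The change in mub1 passed without either WT library with CFW and with only the mub1 libraries fitted (down to 0.0133). The interaction did not pass (0.45 ± 0.19, adjusted p = 0.197). In mub1 both the repressor's mRNA and that of its target were higher than in WT.

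Of 10 other genes tested from peptide import and its control, 5 rose, 2 fell and 3 did not pass between genotypes over both media, beside 26.7% of all genes called higher and 26.2% lower. OPT2, of the oligopeptide transporter family, stood at 138 and 129.5 CPM in mub1 with CFW and 192 and 152 CPM without it, against 46.4 and 50.1 CPM in WT with CFW and 31.5 and 28.9 CPM without it. All mub1 libraries were above all WT libraries, with a rise of 1.99 ± 0.08, adjusted p = 1.41e-07. DAL5, the allantoate permease, which also takes up dipeptides, rose by 1.25 ± 0.09, adjusted p = 4.18e-06. SSY1, the plasma membrane sensor of external amino acids, rose (0.24 ± 0.05), while PTR3, its partner, fell (-0.30 ± 0.05). OPT1, a relative of OPT2, rose (0.32 ± 0.07). TUP1, of the corepressor that Cup9 works with, did not pass (0.12 ± 0.05), while CYC8, its partner there, rose (0.15 ± 0.05, adjusted p = 0.0199) and STP2, a factor activated through the Ssy1 sensor, fell (-0.19 ± 0.06, adjusted p = 0.0266). The CYC8 and STP2 calls were each lost without any 1 library other than those of WT with CFW (up to 0.0843 for CYC8 and 0.102 for STP2). The marker genes of leucine, tryptophan and methionine synthesis differed between the same libraries, and their part in these differences was not tested.

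DSN1 (YIR010W, chromosome IX, 375431 to 377161, plus strand) encodes a subunit of the kinetochore's MIND complex and a substrate of Mub1-Ubr2. DSN1 stood at 54.4 and 53.5 CPM in the mub1 libraries with CFW and at 49.98 and 49.4 CPM in those without it, against 59.9 and 67.1 CPM in WT with CFW and 46.1 and 47.6 CPM in WT without it. In each genotype both CFW libraries were above both libraries without the dye, with the WT libraries highest. CFW raised DSN1 by 0.28 ± 0.05, adjusted p = 0.00423 over both genotypes, which held under all 15 alternatives (adjusted p up to 0.0264). In WT the rise was 0.44 ± 0.08, adjusted p = 0.00586, lost without WT without CFW replicate 1 (0.0645) and with only the WT libraries fitted (0.051), and in mub1 the change was 0.12 ± 0.08, adjusted p = 0.271. The interaction did not pass (-0.32 ± 0.11, adjusted p = 0.127), except without WT with CFW replicate 1 (0.0112). Between genotypes DSN1 fell with CFW (-0.23 ± 0.08, adjusted p = 0.0391), a call lost under 11 of 16 alternatives (adjusted p up to 0.189), and was at 0.08 ± 0.08 without it.

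Of 12 partner genes of Dsn1 in the kinetochore, 3 rose, 0 fell and 9 did not pass with CFW over both genotypes, beside 17.8% of all genes called higher. MIF2, the inner kinetochore protein at the centromere, rose by 0.51 ± 0.10, adjusted p = 0.00348, MTW1, which sits in the MIND complex with Dsn1, by 0.37 ± 0.08, adjusted p = 0.00842 and NDC80, of the microtubule-binding complex, by 0.31 ± 0.07, adjusted p = 0.00606. Between genotypes over both media, 1 rose, 3 fell and 8 did not pass, beside 26.7% of all genes called higher and 26.2% lower. NUF2 (-0.87 ± 0.08) and SPC25 (-0.57 ± 0.13), both of the Ndc80 complex, and OKP1 (-0.32 ± 0.07) fell. MIF2 rose (0.33 ± 0.10), a call lost without WT without CFW replicate 2, mub1 without CFW replicate 2 or mub1 with CFW replicate 2 (adjusted p up to 0.0722).

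With CFW, 0 of the 7 genes other than MUB1 changed in mub1 by edgeR's test (2 at an unadjusted p under 0.05, RAD6 and PTR2, and 0 with DESeq2), beside 27.7% of all genes, and DSN1 alone of the 8 did in WT, beside 19%. Over both genotypes RAD6, RPN4 and DSN1 rose, 3 of 7, where 17.8% of all genes were called higher and 17.7% lower. RAD6 passed in mub1 under 6 of 16 alternatives, by upper-quartile scaling or library totals, with the stricter filter, with only the mub1 libraries and without either WT library with CFW (adjusted p down to 0.0235). The interaction of genotype and CFW called 0 of 7 (2 at an unadjusted p under 0.05, DSN1 and PTR2, and 0 with DESeq2), beside 2.5% of all genes.

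Levels of different genes were compared as TPM, which corrects for coding length and scales each library to the same total (mean ± SD, n = 2). Coding lengths ran from 519 bases (RAD6) to 5853 (UBR1), with 1863 for MUB1 and 5619 for UBR2. How evenly reads covered them was not tested, which limits comparison between genes of unlike length. RPN4 was the highest of the circuit in every group, at 228 ± 14 TPM in mub1 with CFW and 198 ± 23 without it, against 186 ± 29 in WT with CFW and 146 ± 3.5 without it. UBR2 was the lowest apart from the deleted MUB1, at 9.59 ± 0.17 TPM in mub1 with CFW and 9.34 ± 0.16 without it, against 7.70 ± 0.32 in WT with CFW and 7.59 ± 0.17 without it. In WT the adaptor gene MUB1 stood above its ligase gene UBR2, by 2.53 and 2.90 times per coding length with CFW and 2.52 and 2.66 times without it. The order differed between genotypes at CUP9 and RAD6, at UBR1 and DSN1 and at PTR2. UBR1 stood above DSN1 in mub1 and below it in WT, with overlapping libraries in mub1 with CFW and in WT without it. CUP9 stood above RAD6 in mub1 (115 ± 9.9 and 100.2 ± 1.6 TPM without CFW) and below it in WT (75.3 ± 2.2 and 101 ± 1.6 TPM without CFW), with no overlap in either genotype without CFW. PTR2 was in the fourth place in mub1 (104 ± 14 TPM with CFW and 82.9 ± 2.7 without it) and in WT lay next to MUB1 (19.6 ± 3.8 and 21.1 ± 2.6). Neighbours whose libraries overlapped were CUP9 with RAD6, RAD6 with PTR2 and UBR1 with DSN1 in mub1 with CFW, UBR1 with MUB1 and MUB1 with PTR2 in WT with CFW, and DSN1 with UBR1 and PTR2 with MUB1 in WT without CFW. Without CFW all neighbours in mub1 were apart.

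**Figure D4:**
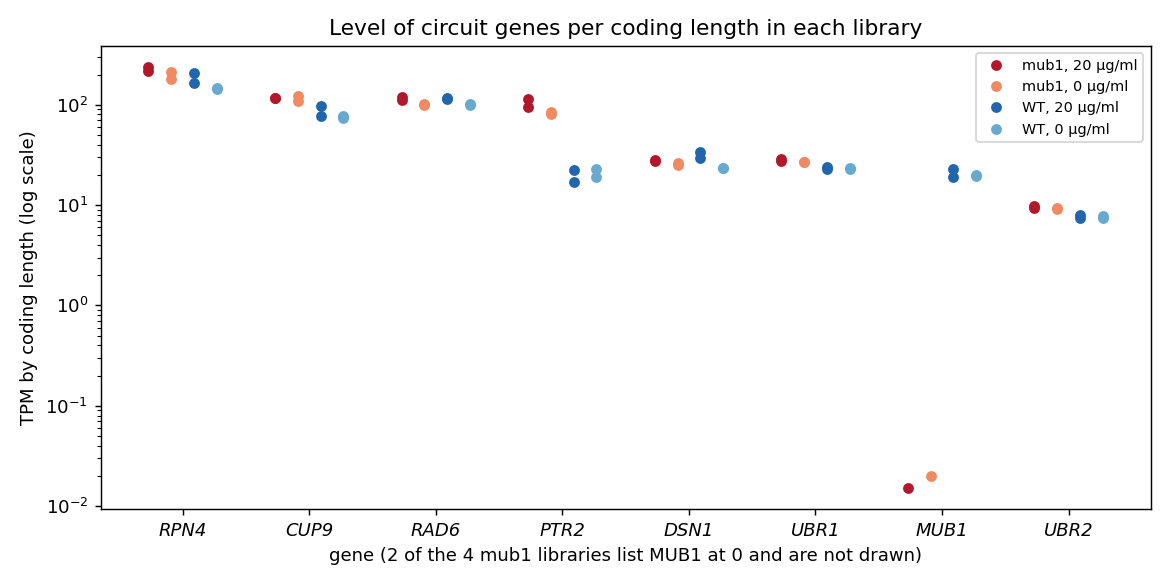
Level per coding length in TPM (y axis, log scale) of the 8 circuit genes (x axis) in each library, coloured by genotype and CFW concentration. RPN4 is highest and UBR2 lowest in the WT libraries, PTR2 parts the genotypes, and MUB1 is at or near 0 in mub1.

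The genes with the most similar course over the 8 libraries were found by the root mean square difference of log2 CPM, each gene centred on its own mean, among 5235 other genes of at least 10 CPM. The nearest to UBR2 was PUP1, a proteasome core subunit (0.031), followed by PRK1, a protein kinase of the actin cytoskeleton (0.039). The nearest to UBR1 were RPN13 (0.028) and PUP3 (0.031), which also encode proteasome subunits. RPN4 was closest to MNN14 (0.061) and GYP7 (0.063), CUP9 to KHA1 (0.059) and YAT2 (0.064), DSN1 to SSP120 (0.036) and UFO1 (0.043), and RAD6 to YPR196W (0.016) and PFA3 (0.034). The measure is not scaled to the size of a gene's changes, which were largest for PTR2, so its distances cannot be set against those above. Nearest to PTR2 was IRC7, a cysteine desulfhydrase (0.187), with log2 fold changes in mub1 of 2.55 ± 0.13 with CFW and 2.07 ± 0.13 without it. YIR042C came next (0.240). All 8 libraries share 4 groups, so genes that respond to genotype alone come out alike.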

How the data were processed

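Per the submitters' processing notes, the tools were FastQC 0.12.1 for read quality, HISAT2 2.2.1 for alignment (build R64) and featureCounts 2.0.3 for counting. The authors deposited whole-number counts per gene, not scaled, for 8 libraries. Libraries were stranded, per the labels' protocols, while the strand setting of the counting and the handling of overlapping genes are not given in the sources used here. In RefSeq's R64 annotation, whose symbols and coordinates were used, no annotated gene overlaps a circuit gene. Of 6534 identifiers 5864 matched it, and TOS8 is not analysed here.

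Testing used edgeR 4.0.16 (R 4.3.3) with its default filter on low counts, TMM factors and robust quasi-likelihood F tests on all 8 libraries with 1 mean per group (4 residual degrees of freedom), adjusted by Benjamini-Hochberg over 5954 genes, threshold 0.05. Each SE was taken from the size of the log2 fold change over the root of its F statistic. The steps were tested on simulated counts, in which far fewer genes were changed than the real comparisons called, the interaction excepted. A log2 change of 0.25 was recovered in 2% to 12% of changed genes between 2 groups and in 0% for the interaction. It was recovered in 26% between genotypes over both media and in 32% with CFW over both genotypes. At a change of 0.5 these shares were 52% to 68%, 30%, 84% and 88%. With fewer changed genes the adjusted threshold is stricter, so these shares may lie below those of the real comparisons. Small changes that did not pass may still have been missed. A count of 0 allows up to 0.0947 to 0.124 CPM (3 counts). Both this limit and the intervals describe counting error alone, because PCR duplicates were not told apart. DESeq2 1.42.0, other scalings and filters, only the groups compared, a replicate block and each library left out were alternatives.

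The circuit genes and lists were chosen with earlier results of these data known. Named genes are the 8 members, the neighbours of MUB1, the marker genes, the called members of each list (at most 4, by smallest p) in the comparison over both media, the most abundant uncalled ones as examples, and the 2 most similar genes per member. List genes called for CFW over both genotypes are named for the N-degron and kinetochore lists. OPT1, CYC8 and STP2 were added after their values were seen, and MAP1, OPT2 and YAP1, which are given with levels, were picked for that after their values were seen.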

Additional observations from a re-analysis of the deposited data

Results flagged for a closer look

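The response of OPT2 to CFW differed between genotypes by the interaction term of edgeR's quasi-likelihood test: its log2 fold change was -0.36 ± 0.11 in mub1 and 0.67 ± 0.11 in WT, a difference of -1.04 ± 0.16 (adjusted p = 0.0172, n = 2 libraries per group), lost without either WT library lacking CFW, mub1 without CFW replicate 1 or either mub1 library with CFW (up to 0.114). HIS3, a marker gene of histidine synthesis, did so as well, with 0.63 ± 0.09 in mub1 and -0.26 ± 0.08 in WT, a difference of 0.89 ± 0.12 (adjusted p = 0.011), lost without any of these libraries: either WT library lacking CFW, mub1 without CFW replicate 1 or mub1 with CFW replicate 2 (up to 0.0962).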

How the results depend on the processing

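With a single library left out, the count of changed genes ran from 1440 to 3223 (mub1 against WT without CFW), 1274 to 2502 (with CFW), 531 to 2541 (CFW in mub1), 269 to 1788 (CFW in WT), 9 to 1779 (interaction), 2501 to 3592 (genotype over both media) and 1314 to 2703 (CFW over both genotypes), and that of circuit genes, MUB1 included, from 3 to 6, 2 to 6, 0 to 3, 0 to 3, 0 to 2, 6 to 6 and 1 to 4. With all libraries the counts were 2554, 2138, 1652, 1134, 149, 3149 and 2109 genes and 5, 6, 0, 1, 0, 6 and 3 circuit genes. With only the compared libraries fitted, 1419 genes and 2 circuit genes changed between genotypes with CFW, 348 and 0 with CFW in WT, and 2 circuit genes with CFW in mub1. In mub1, upper-quartile scaling, library totals and a minimum mean of 10 CPM each called 1 circuit gene with CFW, and in WT library totals and DESeq2 each called 2. DESeq2 called 566 genes for the interaction and the replicate block 92; the cause was not tested. The replicate numbers did not pair the libraries (correlations of deviations -0.161 to 0.168 over 6 pairs of groups), and under the replicate block UBR1 (0.0516) and DSN1 (0.0597) missed the threshold between genotypes with CFW and no other circuit gene changed its call. With 1 library left out, these uncalled log2 fold changes near 0 took both signs: RAD6 -0.08 to 0.03 (mub1 against WT with CFW), UBR1 0.00 to 0.08 (CFW in mub1), CUP9 -0.05 to 0.10 (CFW in mub1), MUB1 -0.05 to 0.20 (CFW in WT), UBR2 -0.02 to 0.04 (CFW in WT), UBR1 -0.02 to 0.03 (CFW in WT), PTR2 -0.31 to 0.06 (CFW in WT), UBR2 -0.01 to 0.05 (interaction of genotype and CFW), RAD6 -0.01 to 0.10 (interaction of genotype and CFW), RPN4 -0.28 to 0.01 (interaction of genotype and CFW), UBR1 -0.01 to 0.08 (interaction of genotype and CFW). Between genotypes over both media every circuit call and direction held under the 15 alternatives run. Depth limits none of these genes except MUB1 in mub1, where 0 or 1 counts give no fold change for CFW.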

Other observations

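Outside the proteasome, 72 genes hold GGTGGCAAA within 500 bases before the start codon. Of the 71 tested, 28 rose and 16 fell in mub1 over both media, with a median log2 fold change of 0.04, beside 26.7% higher and 26.2% lower among all genes. With CFW over both genotypes 12 rose and 11 fell, beside 17.8% of all genes called higher and 17.7% lower.

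Over both genotypes, where 17.8% of all genes were called higher and 17.7% lower with CFW, the other lists gave these calls: of the 33 proteasome subunit genes 0 rose, 5 fell and 28 did not pass, with a count of falls of 1 to 7 when 1 library was left out; of 10 N-degron genes 3 rose, 1 fell and 6 did not pass; of 9 ubiquitin genes 1 rose, 1 fell and 7 did not pass; and of 10 peptide import genes 1 rose, 1 fell and 8 did not pass. Of 7 chain handling and shuttle genes 0 rose, 2 fell and 5 did not pass, while DESeq2 called 4. Of 4 other Rad6 partner genes 1 rose, 0 fell and 3 did not pass. In the N-degron list MAP1 rose with CFW by 0.31 ± 0.07, adjusted p = 0.00635, and NMA111, a nuclear protease that activates Roq1, by 0.45 ± 0.08, adjusted p = 0.00217. MCD1, the cohesin subunit cut by separase, rose by 0.33 ± 0.09, adjusted p = 0.0207, a call lost without WT without CFW replicate 1, mub1 without CFW replicate 2 or mub1 with CFW replicate 1 (up to 0.0838), and MAP2 fell (-0.26 ± 0.06, adjusted p = 0.00842).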
